A study of Chlamydomonas reinhardtii with 9 samples.

Results

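The stretch described here is the part of chromosome 6 of the green alga Chlamydomonas reinhardtii between 100 kb and 1000 kb from the left end, the area named for the mating-type locus on that chromosome. Its members are all chromatin immunoprecipitation (ChIP-seq) peaks whose midpoint lies between these bounds, and position was the only criterion. There were 953 members among 117666 peaks in all, of which 375 came from PAF1-HA libraries and 578 from SKIP-HA libraries. The stretch is 900 kb long, or 10.1% of chromosome 6 as far as peaks reach.

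The libraries were made from formaldehyde-fixed cells by immunoprecipitation of the HA epitope tag. The labels give the genotype or cell type as paf1 for 3 libraries and skip for 3 libraries, and the design text calls the lines CrPAF1-HA and CrSKIP-HA. All are in the CC5325 strain background, and whether the tagged lines also carry a mutation is not stated. A further 3 wild-type (CrWT) libraries exist in that background. Peaks of untagged cells were not analysed here, which leaves every value without a control level. Replicate 3 of each line carries other label fields than replicates 1 and 2. Whether replicates are separate cultures is not said in the labels. The p-values therefore measure library-to-library spread, and this may be technical.

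In Chlamydomonas, sex is set by the mating-type locus, a block of chromosome 6 that is inherited as a unit because its plus and minus versions are rearranged against each other and hardly recombine. The minus version carries MID, a transcription factor gene that sets the minus programme in gametes, and the plus version carries FUS1, a gene for gamete adhesion. Housekeeping genes lie among these genes and on both sides of them. PAF1 gives its name to a complex that accompanies elongating RNA polymerase II. SKIP, a protein with an SNW domain, takes part in splicing and in transcription. Neither the mating type of the cells nor the genome build of the peak lists is given in the sources used here. The gene table at hand is of version 5.5 of the genome, and peaks lay past its last gene on 12 of 17 chromosomes. It was therefore not used, and the name of the stretch rests on its position and could not be checked against genes. Coordinates are 1-based positions in the files' own build, and no sequence is shown because no genome of that build was at hand.

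Each peak list holds intervals without a height or score, between 99.96% and 99.98% of them exactly 400 bp wide. The read depth is unknown, and a missing peak is a missing call. The lists held 16329 to 17645 peaks in PAF1-HA libraries and 19709 to 24680 in SKIP-HA libraries, so numbers below are read against list length.

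Every PAF1-HA library placed a smaller share of its peaks in the stretch than every SKIP-HA library. The stretch held 122, 123 and 130 peaks in PAF1-HA replicates 1, 2 and 3, against 177, 184 and 217 peaks in SKIP-HA replicates 1, 2 and 3. The groups did not overlap. Nor did they in the full 900 kb blocks that follow on chromosome 6, with SKIP-HA higher, except at 3700001 to 4600000. That block held 94, 100 and 122 PAF1-HA peaks and 113, 134 and 151 SKIP-HA peaks. In the stretch the means were 125 ± 4.36 in PAF1-HA and 193 ± 21.4 in SKIP-HA (SD, n = 3 each), a ratio of 0.649. The mean numbers of peaks on the 17 chromosomes had a ratio of 0.763. As a share of the library's nuclear peaks, the stretch took 0.751%, 0.727% and 0.740% in PAF1-HA libraries. It took 0.902%, 0.828% and 0.882% in SKIP-HA libraries, again without overlap. How many other blocks of this length have shares apart, in either direction, was not counted, so the separation does not mark out the stretch. The 95% Wilson intervals of the single libraries, which cover counting error only, did overlap: 0.629% to 0.896% in PAF1-HA replicate 1 and 0.779% to 1.04% in SKIP-HA replicate 1. The mean shares differed by -0.131 percentage points, PAF1-HA minus SKIP-HA (two-sided exact permutation p = 0.1, the smallest this test can give with 3 against 3 libraries; 0.175 after Benjamini-Hochberg adjustment over 7 tests). Within replicates 1 and 2 the difference was -0.126 percentage points.

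Set against the rest of chromosome 6, the stretch was sparser in PAF1-HA peaks, and in SKIP-HA peaks it lay on both sides of the rest. PAF1-HA replicates 1, 2 and 3 had 13.6, 13.7 and 14.4 peaks per 100 kb in the stretch, against 14.8, 16.0 and 16.4 in the rest of the chromosome. The density ratio of stretch to rest was thus 0.918, 0.854 and 0.883, below 1 in 3 of 3 libraries. SKIP-HA replicates 1, 2 and 3 had 19.7, 20.4 and 24.1 peaks per 100 kb in the stretch, against 17.8, 20.9 and 22.1 in the rest. Their density ratios were 1.10, 0.978 and 1.09. Over all 6 libraries the mean log2 density ratio was -0.049 ± 0.16 (SD, n = 6), which did not pass an exact sign-flip permutation test (p = 0.469; adjusted 0.547). The difference between the proteins in this log2 ratio, PAF1-HA minus SKIP-HA, was -0.26 (exact permutation p = 0.1, the smallest possible; adjusted 0.175). It was -0.23 within replicates 1 and 2. Of the 9 consecutive blocks of 900 kb that fit on chromosome 6 from this starting point, the stretch had the lowest ratio of PAF1-HA to SKIP-HA peaks, 0.649, against 0.717 to 0.828 in the others. Low ratios did not end at its bounds. The ratio was 0.56 in the 100 kb window at 1 to 100000, and 0.543 to 0.686 in the 100 kb windows from 1000001 to 1700000. In the next windows, at 1700001 and 1800001, it was 0.981 and 1.11. By number of peaks the stretch was 7th of the 9 blocks for PAF1-HA and 5th for SKIP-HA.

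**Figure D1:**
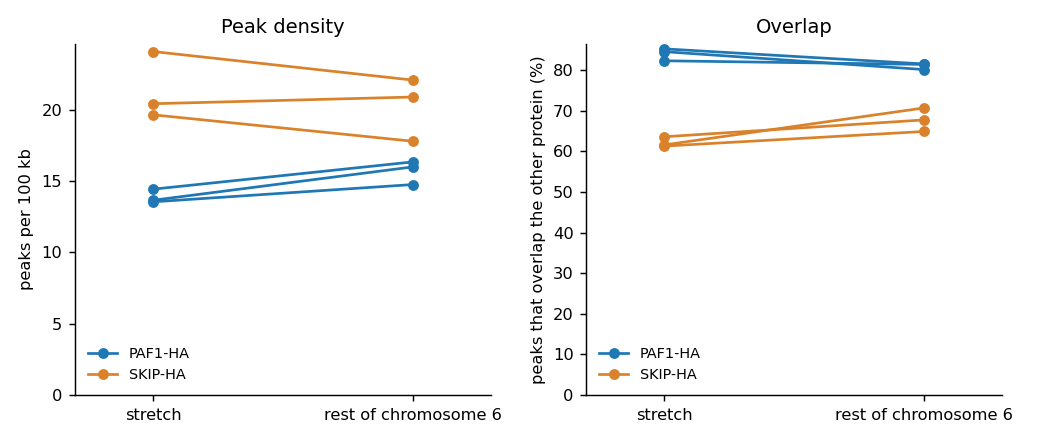
Each line joins 1 library's value in the stretch (left) to its value in the rest of chromosome 6 (right); the left panel shows peaks per 100 kb and the right panel the percentage of peaks that overlap a peak of the other protein. The 3 PAF1-HA lines rise to the right in density and the 3 SKIP-HA lines rise to the right in overlap.

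Inside the stretch the peaks of both proteins were spread very unevenly. The densest 100 kb window of the whole chromosome, at 500001 to 600000, lay 100 kb from 1 of its emptiest, at 700001 to 800000. The dense window held 26, 30 and 38 peaks in PAF1-HA libraries and 42, 44 and 42 in SKIP-HA libraries, and was 1st of the 88 full windows of chromosome 6 for each protein. Its left neighbour, at 400001 to 500000, held 25, 21 and 23 peaks in PAF1-HA libraries and 28, 29 and 32 in SKIP-HA libraries, the 16th and the 12th highest. The window at 700001 to 800000 held 9, 4 and 5 peaks in PAF1-HA libraries and 5, 7 and 7 in SKIP-HA libraries, which placed it 84th and 86th of 88. This was the window where the proteins came closest in number, although the SKIP-HA lists are longer. Next to it, the window at 800001 to 900000 held 6, 10 and 11 peaks in PAF1-HA libraries and 8, 8 and 14 in SKIP-HA libraries. Across the 9 windows the coefficient of variation was between 52.2% and 71.6% in PAF1-HA libraries and between 45.8% and 61.4% in SKIP-HA libraries. Over the 79 other full windows of the chromosome it was 45.7% to 46.6% for PAF1-HA and 36.6% to 39.7% for SKIP-HA. Each library was more uneven in the stretch than in the pooled rest, which is a description over 9 windows and was not tested. Other runs of 9 adjoining windows were not compared, so unevenness is not shown to be particular to the stretch. Elsewhere on the chromosome, the windows at 4000001 and 4400001 averaged 21.3 and 1.5 peaks over the 6 libraries.

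**Figure D2:**
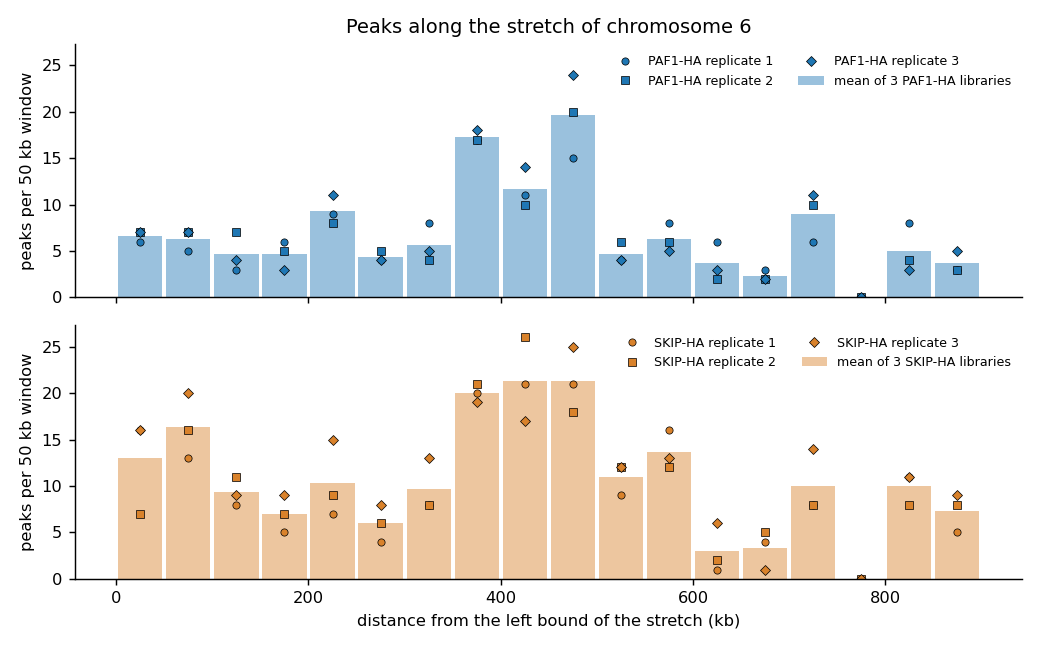
Peaks per 50 kb window (y axis) along the stretch, by distance in kb from its left bound (x axis), for PAF1-HA (top) and SKIP-HA (bottom); bars are means of 3 libraries and symbols are single libraries. Both proteins are densest in the windows from 450001 to 600000, and 0 peaks of any library fall in the window at 850001 to 900000.

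At 50 kb the crest lay in 3 adjoining windows. The window at 550001 to 600000 held 15, 20 and 24 peaks in PAF1-HA libraries and 21, 18 and 25 in SKIP-HA libraries, with overlapping groups. At 450001 to 500000 there were 17, 17 and 18 peaks in PAF1-HA libraries, against 20, 21 and 19 in SKIP-HA libraries. Between them, at 500001 to 550000, PAF1-HA libraries held 11, 10 and 14 peaks, against 21, 26 and 17 in SKIP-HA libraries. By number of peaks, the middle window was therefore 32nd of 177 full windows of the chromosome for PAF1-HA and tied 5th for SKIP-HA. PAF1-HA numbers dip there, but as shares of the lists the groups overlapped. The log2 ratio of shares, PAF1-HA over SKIP-HA, was -0.45 (adjusted p in limma, 0.517). The 3 lowest windows were those at 850001 to 900000, with 0 peaks in every library, at 750001 to 800000, with 3, 2 and 2 PAF1-HA peaks and 4, 5 and 1 SKIP-HA peaks, and at 700001 to 750000, with 6, 2 and 3 PAF1-HA peaks and 1, 2 and 6 SKIP-HA peaks. In the rest of chromosome 6, between 2 and 4 of 159 windows held 0 peaks, depending on the library.

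Long runs of sequence without a peak of any library lay on both sides of the crest. The longest reached from 836806 to 901442, over 64637 bp, and was the 4th longest such run on chromosome 6 and the 39th on all 17 chromosomes. The next lay at 221693 to 269276 (47584 bp) and at 747789 to 789100 (41312 bp), the 7th and 8th on the chromosome. Then came 979734 to 1005734 (26001 bp), which crosses the right bound, and 156376 to 174918 (18543 bp). Runs of at least 40 kb numbered 3 in the stretch and 5 in the rest of chromosome 6, or 17.1% and 4.72% of the length. Long runs also lay close together in the rest, at 4355910 to 4406053 (50144 bp) and 4407112 to 4525998 (118887 bp). The latter was the longest on the chromosome. Runs of at least 10 kb were about as frequent in both, at 15.6 per Mb in the stretch and 16.4 per Mb in the rest. The longest empty run of a single library was 72851, 72471 and 72813 bp in PAF1-HA replicates 1, 2 and 3, and 71478, 65129 and 73108 bp in SKIP-HA replicates 1, 2 and 3. In 4 of the 6 libraries it began between 836616 and 836806, which is the same right edge of peaks within 200 bp. In PAF1-HA replicate 2 and SKIP-HA replicate 1 it began at 717805 and 717829. Read coverage was not among the data, and whether reads could be mapped in these runs was not tested.

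The proteins were compared window by window as shares of the library's peaks. Of the 9 windows of the stretch, 0 were called with limma at an adjusted p below 0.05 in either direction. Among all 1068 windows tested, 0.0936% were called with the higher share in PAF1-HA and 0.468% with the higher share in SKIP-HA. At an unadjusted p below 0.05 there were 3 of the 9 windows, against 152 of 1068, or 14.2%. These 3 windows were also those whose shares did not overlap between the groups, and in each PAF1-HA was lower. The background of windows with a share apart was 9.93% with SKIP-HA higher and 10.0% with PAF1-HA higher, and 0 of the 9 had PAF1-HA higher.

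The lowest p in the stretch belonged to the window at 600001 to 700000, just right of the crest. It held 12, 12 and 9 peaks in PAF1-HA libraries, against 25, 24 and 25 in SKIP-HA libraries. The log2 ratio of shares, PAF1-HA over SKIP-HA, came to -0.76, with an SE of 0.21 and an adjusted p of 0.119 in limma. The window at 100001 to 200000, at the left bound, held 11, 14 and 14 peaks in PAF1-HA libraries, against 29, 23 and 36 in SKIP-HA libraries. Its log2 ratio came to -0.75, with an SE of 0.21 and an adjusted p of 0.120 in limma. SKIP-HA was 13th of 88 windows here and PAF1-HA 53rd. At the right bound, the window at 900001 to 1000000 held 11, 7 and 8 peaks in PAF1-HA libraries, against 16, 16 and 20 in SKIP-HA libraries. The shares there stood at -0.59 on the log2 scale (SE 0.21; adjusted p from limma, 0.215). In numbers of peaks, the PAF1-HA mean was 0.446 and 0.443 of the SKIP-HA mean in the windows at 600001 and 100001, against 0.763 for the whole lists. At 900001 the means were 8.67 PAF1-HA peaks and 17.3 SKIP-HA peaks.

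The other 6 windows lay closer to the ratio of the lists. At 200001 to 300000 there were 9, 12 and 7 peaks in PAF1-HA libraries and 13, 18 and 18 in SKIP-HA libraries, and at 300001 to 400000 there were 13, 13 and 15 PAF1-HA peaks and 11, 15 and 23 SKIP-HA peaks. Log2 ratios of shares in the 6 windows ran from -0.41 at 200001 to 300000 to 0.25 at 700001 to 800000, with limma adjusted p between 0.437 and 0.974. The dense windows at 400001 to 500000 and 500001 to 600000 had 0.023 and -0.072. The median over the 9 windows was -0.072, against -0.0066 over all 1068. In 50 kb windows, 16 of 18 had enough peaks to be tested, and limma called 0 of them and 0 of all 2052 (0% in either direction). At an unadjusted p below 0.05 there were 3 of the 16 and 272 of the 2052, or 13.3%. The lowest of the 16 was at 150001 to 200000, with 5, 7 and 7 peaks in PAF1-HA libraries against 13, 16 and 20 in SKIP-HA libraries (log2 ratio -0.91 with an SE of 0.25; adjusted p in limma, 0.202). The windows at 600001 to 650000 and 650001 to 700000 had log2 ratios of -0.78 and -0.68 (adjusted p in limma, 0.280 and 0.349).

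**Figure D3:**
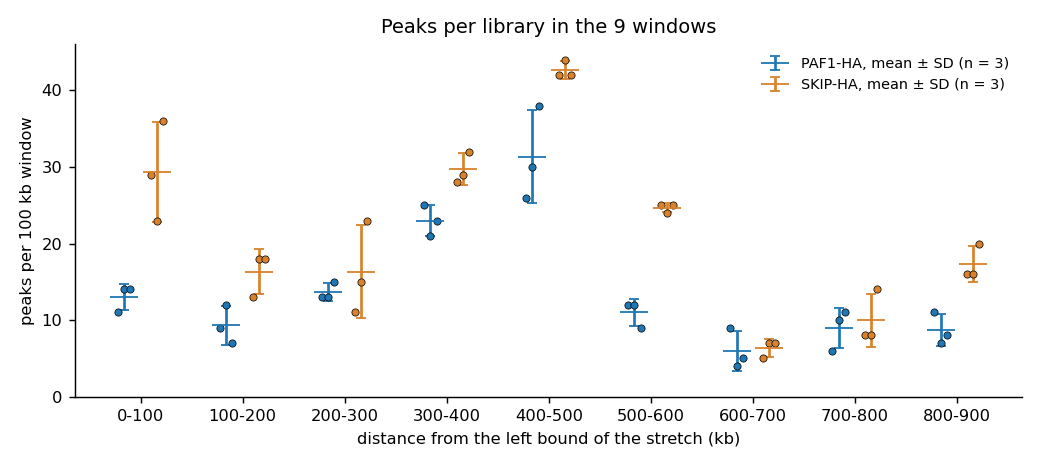
Peaks per 100 kb window (y axis) in the 9 windows, by distance in kb from the left bound (x axis), with each library as a point and the mean ± SD of 3 libraries as a bar, PAF1-HA left of SKIP-HA. The numbers are not divided by list length, and the SKIP-HA lists are the longer ones. How many of all windows have numbers apart was not counted, so separation of the points is not read as a result. As shares of the list, the groups were apart only at 100001, 600001 and 900001, with SKIP-HA higher. The background of such windows was 9.93% of 1068.

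Even so, the proteins followed each other along the stretch. Pearson's r between the mean PAF1-HA and the mean SKIP-HA numbers was 0.88 over the 9 windows of 100 kb and 0.86 over the 18 windows of 50 kb, against 0.86 over 79 and 0.79 over 159 other windows of the chromosome. These describe windows that share base composition, mappability and gene content, and windows are not replicates.

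**Figure D4:**
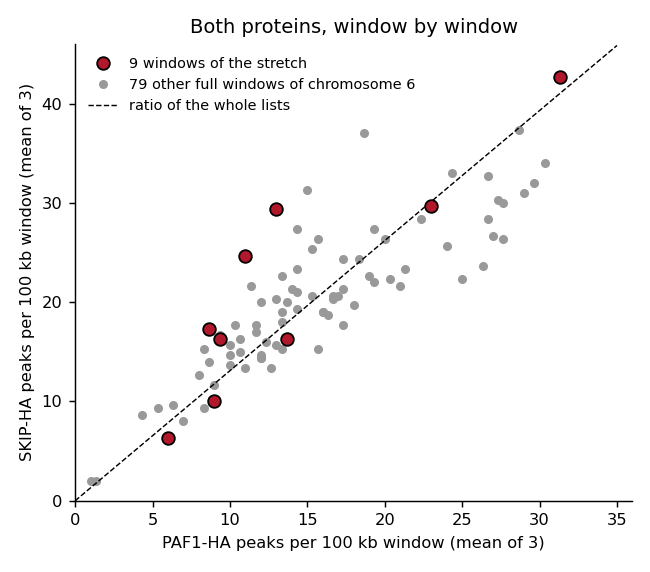
Mean PAF1-HA (x axis) against mean SKIP-HA (y axis) peaks per 100 kb window of chromosome 6, n = 3 libraries each; red points are the 9 windows of the stretch, grey points the 79 others, and the dashed line has the ratio of the whole lists. The 3 red points farthest above the line in proportion are the windows with 11.0, 13.0 and 8.67 PAF1-HA peaks.

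Merging peaks of all 6 libraries that overlapped by at least 1 bp gave 300 regions in the stretch, with a median width of 531 bp. Of these, 149, or 49.7% (95% Wilson interval 44.0% to 55.3%), had peaks of both proteins. Peaks of PAF1-HA only were found in 37, or 12.3% (9.08% to 16.5%), and peaks of SKIP-HA only in 114, or 38.0% (32.7% to 43.6%). In the rest of chromosome 6, 51.2% of 2686 regions had both proteins, 15.1% PAF1-HA only and 33.7% SKIP-HA only, all inside the intervals of the stretch. These intervals cover counting error only. They take regions as independent and leave out the spread between libraries, so they are no test of stretch against rest. Most one-protein regions rested on a single library, 29 of the 37 for PAF1-HA and 79 of the 114 for SKIP-HA. The SKIP-HA lists are the longer ones, and the part of list length in these counts was not tested. Without SKIP-HA replicate 3, the longest list, 64 regions were PAF1-HA only.

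The makeup of the regions changed along the stretch. In the dense windows at 400001 to 500000 and 500001 to 600000, 62.5% of 40 and 63.8% of 58 regions had both proteins. At 100001 to 200000, 30.4% of 46 regions did, and 58.7%, or 27, were SKIP-HA only. Of these 27, 17 rested on 1 library and 3 had peaks in every SKIP-HA library. At 600001 to 700000, 46.2% of 26 regions, or 12, were SKIP-HA only and 3.85%, or 1 region, PAF1-HA only. Of these 12, 4 rested on 1 library and 3 had peaks in every SKIP-HA library. The highest share of PAF1-HA only regions was at 800001 to 900000, with 6 of 24, and each of these 6 rested on 1 library.

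**Figure D5:**
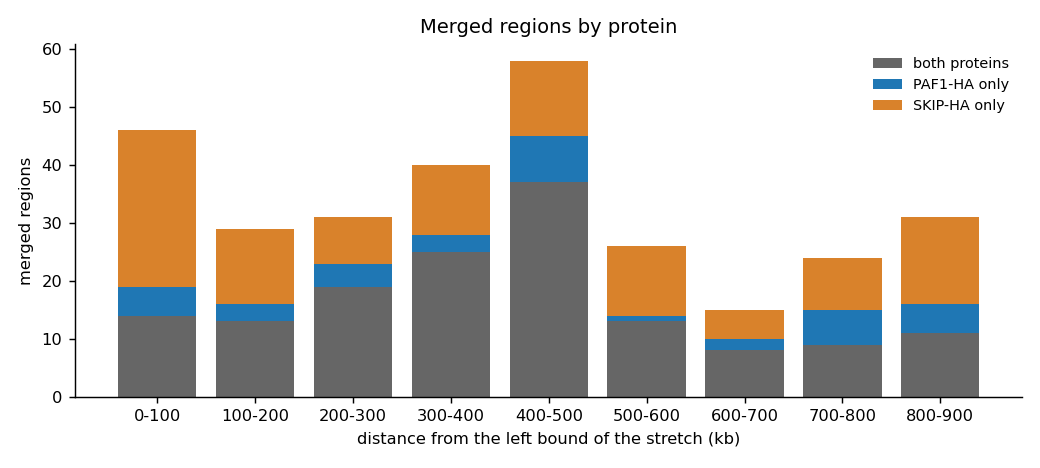
Number of merged regions (y axis) in each 100 kb window, by distance in kb from the left bound (x axis), stacked by whether both proteins, PAF1-HA only or SKIP-HA only had peaks there. SKIP-HA only regions make up 27 of 46 regions in the first window and 13 of 58 in the fifth.

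A peak in every PAF1-HA library and in no SKIP-HA library was found for 1 region of the stretch (0.333% of 300, against 1.01% of the regions in the rest of chromosome 6). It lay at 460211 to 461499, inside the dense part, and held 3, 1 and 2 PAF1-HA peaks in replicates 1, 2 and 3. The opposite, peaks in every SKIP-HA library and in no PAF1-HA library, was found for 8 regions (2.67%, against 2.87% in the rest). Of the 8, 3 lay in the window at the left bound, at 104310 to 105046, 134853 to 135886 and 141693 to 142320. A further 3 lay right of the crest, at 647258 to 648193, 672606 to 673671 and 679947 to 680936. The regions at 134853 and 672606 held 2 peaks in each SKIP-HA library. The remaining 2 were at 220791 to 221692, which borders the second longest empty run, and at 518458 to 519204, in the middle 50 kb window of the crest. With 1 library left out and fewer libraries thus required, the numbers were 3 or 4 for PAF1-HA and 14 to 22 for SKIP-HA.

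Peaks in all 6 libraries were found for 24 of the 300 regions, against 191 of 2686, or 7.11%, in the rest of chromosome 6. In 10 of them each library had exactly 1 peak, with centres within 45 to 336 bp of each other. The closest agreement was at 454972 to 455416, within 45 bp. Next came 583970 to 584433 (64 bp), 584695 to 585163 (69 bp), 579316 to 579816 (101 bp) and 209610 to 210145 (136 bp). Of these 5, 3 lie in the densest window. The widest regions with all 6 libraries were at 175746 to 178487 (2742 bp, with 2, 2 and 3 PAF1-HA peaks and 5, 4 and 1 SKIP-HA peaks), 497684 to 499784 (2101 bp), 539624 to 541672 (2049 bp), 122188 to 124081 (1894 bp) and 660748 to 662378 (1631 bp).

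Joining regions separated by no more than 1 kb left 100 clusters in the stretch, and 14 longer than 5 kb held 401 of the 953 peaks. Clusters were not counted in the rest of the chromosome, so these numbers have no comparison. The longest, at 579316 to 598500 (19185 bp), held 11, 13 and 15 peaks in PAF1-HA libraries and 17, 16 and 19 in SKIP-HA libraries. The second, at 187882 to 206601 (18720 bp), held 3, 5 and 3 peaks in PAF1-HA libraries and 9, 11 and 11 in SKIP-HA libraries. The first was thus dense in both proteins and the second mainly in SKIP-HA, which are descriptions of clusters chosen by their length. Peaks with a neighbouring centre of the same list within 1 kb made up 40.2%, 52.8% and 46.2% in PAF1-HA libraries, against 49.3%, 51.1% and 50.4% in the rest of the chromosome. In SKIP-HA libraries they made up 48.0%, 52.2% and 59.4%, against 52.2%, 55.5% and 57.6% in the rest. The stretch was lower in 4 of 6 libraries, by a mean of -2.91 ± 4.15 percentage points (SD, n = 6; exact sign-flip permutation p = 0.156; adjusted 0.219).

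The share of peaks that overlapped the other protein moved in opposite directions. Compared with the rest of the chromosome it was higher in the stretch in 3 of 3 PAF1-HA libraries and lower in 3 of 3 SKIP-HA libraries. Of the PAF1-HA peaks in replicates 1, 2 and 3, 85.2%, 84.6% and 82.3% overlapped a peak of any SKIP-HA library, against 81.5%, 80.1% and 81.4% in the rest. Of the SKIP-HA peaks, 61.6%, 63.6% and 61.3% overlapped a peak of any PAF1-HA library, against 70.7%, 67.7% and 64.9% in the rest. Over the 6 libraries together the mean of stretch minus rest was -1.31 ± 5.24 percentage points (SD, n = 6; exact sign-flip permutation p = 0.656; adjusted 0.656). The difference between the proteins was 8.64 percentage points (PAF1-HA minus SKIP-HA; exact permutation p = 0.1, the smallest possible; adjusted 0.175), a test chosen after these values were seen. It was 8.56 within replicates 1 and 2. Without SKIP-HA replicate 2 it was 14.4, and the mean over the remaining 5 libraries was 2.29 in place of -1.31. The ratio of PAF1-HA to SKIP-HA peaks was also lower in the stretch (0.649, against 0.717 to 0.828 in the other blocks), and its part in the overlap was not tested.

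Libraries of the same line resembled each other in the stretch as they did elsewhere. The base-pair Jaccard index, the shared over the combined covered length, averaged 0.220 ± 0.00525 over the 3 pairs of PAF1-HA libraries and 0.215 ± 0.0106 over the 3 pairs of SKIP-HA libraries (SD). It averaged 0.181 ± 0.0109 between the lines (SD, 9 pairs). In the rest of chromosome 6 the values were 0.213, 0.202 and 0.184. By this index, the lowest pair within a line in the stretch, at 0.205, lay above the highest pair between lines, at 0.194. By the share of peaks met in the other list, the pairs were not apart. PAF1-HA replicates 1 and 3 had 49.3%, below the 51.0% of PAF1-HA replicate 2 with SKIP-HA replicate 1. Mean covered length in the stretch was 48792 bp in PAF1-HA and 75253 bp in SKIP-HA, and its part in the index was not tested.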

How the data were processed

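The authors deposited 1 peak list per library as BED intervals (sequence, start and end), with no score, fold or p-value column. Per the submitters' processing notes, the tools were Bowtie2 and HOMER (9 of 9 samples) and MACS3 (4 of 9). No version, threshold, control library or genome build is given in the sources used here.

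Peaks were placed by their midpoint. The 17 chromosomes were used, each ending where its last peak of any list ends, and contigs and organelles were left out. Intervals were handled in Python 3.11.15 (numpy 2.4.6, pandas 2.3.3, scipy 1.17.1, with matplotlib 3.10.9 for the plots). Windows were fitted genome-wide with limma 3.58.1 in R 4.3.3. The fit used log2 of (peaks + 0.5) over the library's nuclear peaks, for windows that averaged 5 or more peaks (100 kb) or 3 or more (50 kb), with Benjamini-Hochberg adjustment over all windows tested. The lines were compared on 1 value per library with exact permutation tests (two-sided), and stretch against rest by exact sign-flips over libraries.

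Alternatives left out each library, kept replicates 1 and 2, moved the bounds, kept 400 bp intervals only, or changed the comparison region, overlap, pseudocount, filter and scaling. The code was tested on simulated data. Named items are all 9 windows of 100 kb, the 3 highest and 3 lowest of 50 kb, the 5 longest empty runs, every region with all libraries of one protein and none of the other, and the 5 widest and 5 closest regions with all libraries. Other 50 kb windows and the clusters were chosen after their values were seen. The members and lists were chosen with earlier results of these data known.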

Additional observations from a re-analysis of the deposited data

Results flagged for a closer look

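The overlap with the other protein moved in opposite directions in the lines. Relative to the rest of chromosome 6, it was higher in the stretch by 3.72, 4.41 and 0.900 percentage points in PAF1-HA replicates 1, 2 and 3, and differed by -9.11 and -4.16 points in SKIP-HA replicates 1 and 2. In SKIP-HA replicate 3 it was 61.3% in the stretch, against 64.9% in the rest. The difference of the means, PAF1-HA minus SKIP-HA, was 8.64 points (exact permutation p = 0.1, the smallest this test can give with 3 against 3 libraries). It was 14.4 points without SKIP-HA replicate 2 and between 6.10 and 8.79 points with any other library left out. The same lines differed in density, with stretch-to-rest ratios of 0.854 to 0.918 in PAF1-HA and 0.978 to 1.10 in SKIP-HA. The part of density in the overlap was not tested.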

How the results depend on the processing

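The differences between proteins in peaks, list share, density ratio and overlap kept their direction under every alternative run. The density difference ran from -0.31 to -0.21. The exact permutation test used there cannot give a p below 0.1 with 3 against 3 libraries, so its p says nothing about stability. Window shares of same-numbered libraries, centred within each line, did not deviate together (correlations -0.00353, -0.0322 and 0.00226 over windows). These correlations cannot show a shift of a whole list. List length rose with replicate number in both lines: 16329, 16998 and 17645 peaks in PAF1-HA, and 19709, 22305 and 24680 in SKIP-HA. Whether the numbers pair libraries is therefore not settled. With the replicate block the density difference stayed -0.26 (exact p = 0.25, the smallest for 3 pairs), and the 6 called windows of 100 kb became 15, with 0 in the stretch. The stretch's mean overlap difference turned to 0.484 with bounds of 150 and 950 kb, and ranged from -2.78 to 2.29 with 1 library left out (2.29 without SKIP-HA replicate 2).

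Called windows of 100 kb numbered 0 (without SKIP-HA replicate 2 or 3) to 12 (without PAF1-HA replicate 3) with 1 library left out, 0 of them in the stretch. With replicates 1 and 2 only there were 10. Without division by list length, 114 of 1068 were called, all with SKIP-HA higher, the line with the longer lists. Of these, 3 lay in the stretch. Chosen after seeing the data, a mean-variance trend gave 2, and trend with replicate block 26 of 1068, 14 with PAF1-HA higher and 12 with SKIP-HA higher. That last fit called 2 windows of the stretch, at 100001 (limma adjusted p = 0.0391) and 600001 (0.0431). With the trend alone both had 0.0533. Windows of 50 kb called went from 0 to 7 without the filter, 1 undivided and 3 with the trend.

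Undivided, the log2 ratios turned to -0.19 (300001), -0.36 (400001), -0.13 (700001) and -0.14 (800001). With 1 library left out they ranged from -0.067 to 0.086 at 400001, from -0.19 to 0.023 at 500001 and from -0.087 to 0.48 at 700001.

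Merging at 200 bp gave 470 regions, 90 PAF1-HA only, 226 SKIP-HA only and 2 with all PAF1-HA and no SKIP-HA libraries. With 1 library left out these last were 3 to 4, the opposite kind 14 to 22, and PAF1-HA only regions 26 to 64. The within-minus-between difference was 0.0371 by Jaccard and 0.0536 by share of peaks met. Read depth was unknown.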
